A study of Mus musculus with 4 samples.

Results

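The forkhead factors of mesenchyme described here are 10 genes fixed by name: Foxf1, Foxf2, Foxl1, Foxc1, Foxc2, Foxd1, Foxs1, Foxp1, Foxp2 and Foxo1. They are 10 of 44 forkhead genes and of 23930 amplicons in a table of messenger RNA from mouse subcutaneous progenitor cells. The cells came from C57BL/6 mice whose Gnas, the gene of the stimulatory G protein alpha subunit, is floxed, so that control cells carry the floxed gene as well. They were infected in culture with an adenovirus, either Ad-GFP (genotype wild type, called control 1 and control 2) or Ad-Cre (genotype Gnas-/-, called mutant 1 and mutant 2), and all were then held in osteogenic medium for 7 days. The labels give neither the age of the mice nor the number of mice or cultures behind a group, so the p-values rest on the spread between these libraries alone. That spread may be technical in part, and the controls also differed in the X-linked RNA Xist and in macrophage markers, as given below. Xist, the Y-linked gene Ddx3y and several macrophage markers also differed between the groups. The virus and the loss of Gnas cannot be told apart in this design, and the part of these other group differences was not tested.

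Forkhead proteins are transcription factors that bind DNA through a winged helix domain, and the mesenchymal members mark where connective tissue forms. Foxf1, Foxf2 and Foxl1 are switched on by Hedgehog signals from epithelium in gut mesenchyme, where the signal passes from the receptor Ptch1 through Smo to the Gli factors. Foxc1 and Foxc2 act in skull, somite and vessel development, Foxd1 in stromal progenitors of the kidney and Foxs1 in perivascular cells. Foxp1 and Foxp2 are repressors with broad roles, and Foxo1 is held out of the nucleus when insulin or growth factor signals activate Akt.

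Among these genes Foxc1 rose in the mutant libraries, by 5.84-fold in mean RPM (reads of a gene's amplicon scaled to the library total), and it was the single one past the threshold. Foxd1 and Foxl1 were higher in both mutants than in both controls but stayed near the lower limit of measurement and did not pass. For Foxf1, Foxf2, Foxc2 and Foxs1 the mutants lay between control libraries that differed from each other, up to 16.1-fold for Foxf1. Foxp1, Foxp2 and Foxo1 did not pass either.

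Libraries held 13483518 to 18455811 reads, and no row of the table bears the name of the targeted gene, so the targeted gene gives no check of the genotype labels. The stromal identity of the cells showed in the 13 of 16 stromal markers that could be matched, whose summed level was 14662 to 19107 RPM in control and 32169 to 35245 RPM in mutant libraries. Most of that sum was Col1a1 (5332 and 9875 RPM, then 16666 and 21009 RPM) and Col1a2. Pdgfra, Thy1, Twist1, Lum, Cd34 and Dpt were also higher in both mutants, as were 30.6% of all genes tested. Dcn was lower in both, and Pdgfrb, Col3a1 and Ly6a overlapped. Of the 12 stromal markers tested, 1 rose, against 1.73% of all genes tested, and 0 fell, against 0.576%. The one that rose was Dpt (19.0 and 58.1 RPM in controls 1 and 2, 666 and 430 RPM in mutants 1 and 2). The progenitor marker Dpp4 was at 0 in control 2 and mutant 1. The controls were further apart (Pearson's r of 0.916 across 11638 genes, which are not independent replicates) than the mutants (0.981). Xist, the RNA of the inactive X chromosome, had 165 RPM in control 1, no read in control 2, and 395 and 419 RPM in mutants 1 and 2. The Y-linked gene Ddx3y was read in every library, at 61.4 and 124 RPM with Ad-GFP, and 26.9 and 12.5 RPM with Ad-Cre. Xist was thus higher and Ddx3y lower in both mutants than in both controls, neither past the threshold. These sex-linked genes differed between the groups as well as between the controls. The summed macrophage marker level was 50.6 RPM in control 1 and 970 RPM in control 2, against 30.2 and 16.9 RPM in mutants 1 and 2. Lyz2, Cd68, Tyrobp, Ptprc, Cd14, Fcer1g, Ctss, C1qb, C1qc and Mrc1 were lower in both mutants than in both controls. Csf1r, Adgre1 and Cd163 overlapped, and C1qa was higher in both mutants (0.172 and 0.135 RPM). None of the 7 macrophage markers tested passed. The part of these differences between libraries and groups in the results below was not tested.

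Genes were compared with limma on log2(RPM + 1) across the 11638 genes that reached 1 RPM or more in 2 or more libraries, with Benjamini-Hochberg adjusted p-values and 0.05 as the threshold. The log2 fold change is the mutant minus the control mean on that scale, and it understates the change of low genes. All 10 members reached the filter, but Foxf1, Foxl1 and Foxd1 did so only with the mutants, and for Foxl1 and Foxd1 a higher value there was a condition of being tested. Of the 10, 1 rose, against 1.73% of all genes tested, 0 fell, against 0.576%, and 9 did not pass. At an unadjusted p below 0.05 there were 3 (Foxc1, Foxd1 and Foxl1), against 17.9% of all genes tested. The median log2 fold change was 0.40 over the members and 0.08 over all genes tested; it was 0.21 over the 7 members that reached the filter in the controls alone and 1.34 over the 3 that did so only with the mutants. In 4 members both mutants were above both controls, a pattern seen in 30.6% of all genes tested, and in 2 both were below, as in 21.1%.

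**Figure D1:**
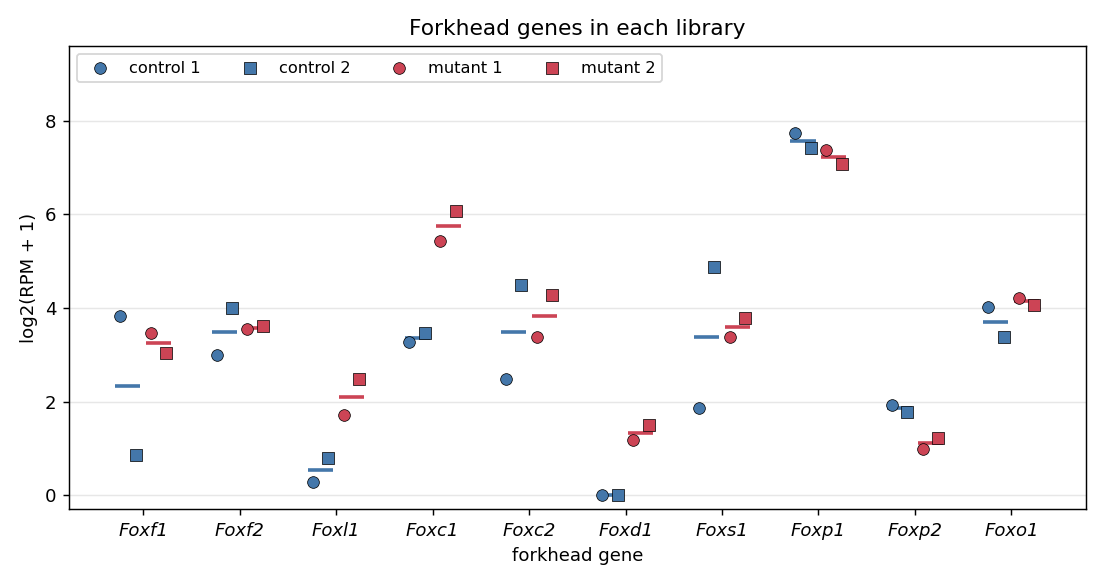
Level of each of the 10 forkhead genes in each library, as log2(RPM + 1); blue points are controls, red points mutants, and bars the group means. Foxc1 shows close controls and 2 mutants well above them, while for Foxf1, Foxc2 and Foxs1 the 2 controls stand at opposite ends of the range. Each gene is read through its own amplicon, so heights are to be compared within a gene.

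Foxc1 measured 8.62 and 10.0 RPM in controls 1 and 2, against 42.1 and 66.7 RPM in mutants 1 and 2, from 159, 135, 735 and 991 reads. The mutants did not overlap the controls, and the lower mutant was over 4 times the higher control. The control mean was 9.31 ± 0.988 RPM and the mutant mean 54.4 ± 17.4 RPM (SD, n = 2 libraries each), with a log2 fold change of 2.39 (SE 0.32, 95% interval 1.57 to 3.21, limma adjusted p = 0.0384). The call ended without a filter on low values (adjusted p = 0.0688), with edgeR on whole reads (adjusted p = 0.0567) and without mutant 1 (0.495) or mutant 2 (0.644), when limma called no gene of the table (689 and 670 genes at an unadjusted p below 0.05). For these settings the share of all genes called higher was 0.289% with no filter and 0.567% with edgeR. DESeq2 on whole reads, which called 5.14% higher, gave an adjusted p of 2.8e-07, and the log2 fold change ranged from 2.02 to 2.72 over the 15 alternatives.

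Foxc1 lies on chromosome 13 at 31806633 to 31812476 (plus strand, GENCODE annotation of GRCm38, positions of the gene and not of the amplicon), 181 kb beyond the start of Foxf2. Foxf2, a factor of palate and gut mesenchyme, measured 6.94 and 15.0 RPM in controls 1 and 2, against 10.7 and 11.2 RPM in mutants 1 and 2. Both mutants lay between the controls, and the log2 fold change of 0.08 had an interval of -0.99 to 1.16 (adjusted p = 0.937), which includes sizeable changes in either direction. The interval is not adjusted for the number of genes tested, so it is no limit of detection, and larger changes can also go without a call. The sign of the log2 fold change turned under several alternatives. Foxq1, an epithelial forkhead gene on the other side of Foxf2, had at most 0.371 RPM in any library. Gmds, an enzyme gene of GDP-fucose synthesis that follows Foxc1, measured 36.4 and 36.1 RPM in the control cells, and 56.4 and 70.6 RPM in the mutant cells, without passing (log2 fold change 0.78, adjusted p = 0.18).

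The bases before the RefSeq start of Foxc1 and Foxf2 are given below because these neighbours differed in their result, together with those of Foxd1, the other member of chromosome 13. They come from RefSeq promoters of GRCm38.p6, which held 5 of the 10 members, at chr13:31806396-31806645 for Foxc1, chr13:31625566-31625815 for Foxf2 and chr13:98353995-98354244 for Foxd1, all on the plus strand and written 5′ to 3′. Capitals mark TGACG, the core of the site that cAMP-responsive factors bind.
Foxc1: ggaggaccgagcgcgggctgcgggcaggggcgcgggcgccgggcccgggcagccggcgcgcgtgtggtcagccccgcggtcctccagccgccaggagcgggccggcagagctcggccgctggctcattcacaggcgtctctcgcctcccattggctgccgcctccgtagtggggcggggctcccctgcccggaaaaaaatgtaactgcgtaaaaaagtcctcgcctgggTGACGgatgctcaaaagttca
Foxf2: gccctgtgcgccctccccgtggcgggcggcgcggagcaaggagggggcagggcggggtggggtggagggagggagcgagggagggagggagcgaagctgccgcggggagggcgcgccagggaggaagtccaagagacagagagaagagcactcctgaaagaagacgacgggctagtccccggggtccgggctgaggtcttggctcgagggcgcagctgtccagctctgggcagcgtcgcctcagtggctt
Foxd1: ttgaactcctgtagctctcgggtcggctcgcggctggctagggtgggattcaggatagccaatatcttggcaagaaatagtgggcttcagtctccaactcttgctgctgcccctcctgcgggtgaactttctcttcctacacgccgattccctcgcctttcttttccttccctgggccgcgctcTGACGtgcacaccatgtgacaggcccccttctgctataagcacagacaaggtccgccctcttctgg
Searched on both strands over 250 bases, TGACG occurred once in Foxc1, 21 bases before the start, and once in Foxd1, 66 bases before it, and was not found in Foxf2. It occurs in 17.8% of the 32851 promoter windows of that table. The full palindrome TGACGTCA, which contains TGACG and occurs in 1.55% of windows, was in none of these windows, nor was the Gli motif TGGGTGGTC (0.225%) or the forkhead motif TGTTTA (12%). Of the other members in that table, Foxp1 had TGACG in 1 of its 3 windows, 224 bases before the start on the other strand, and TGTTTA in all 3, and Foxo1 had none of these motifs. A match is a description of letters in the window and not a site.

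**Figure D2:**
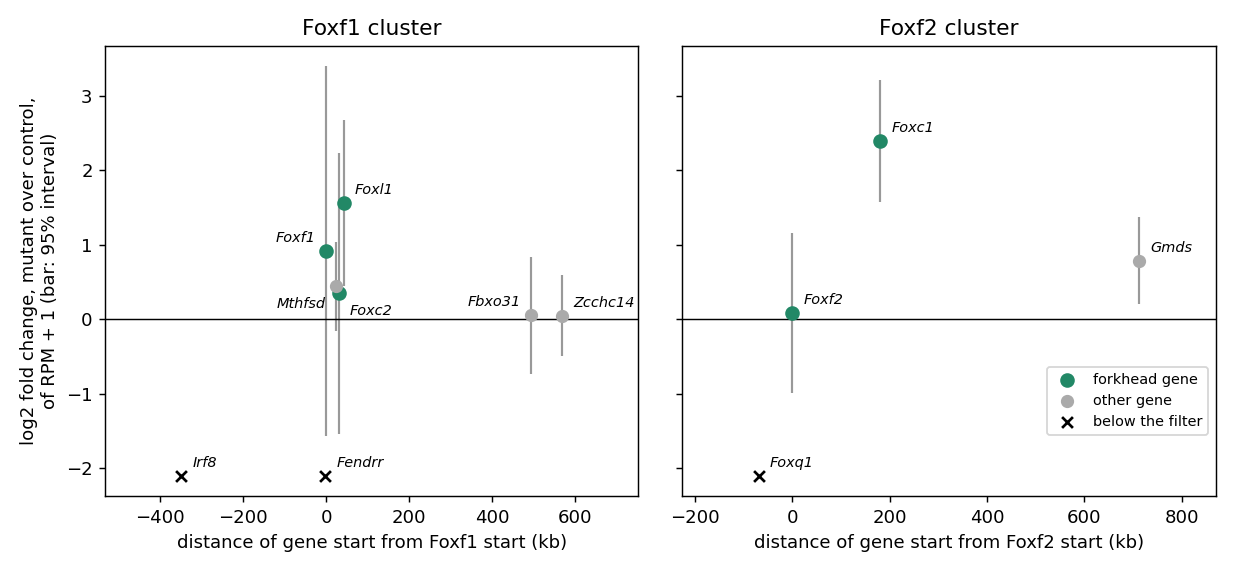
Log2 fold change (mutant over control, of RPM + 1, with 95% interval) of genes around Foxf1 on the left and Foxf2 on the right, against the distance of each gene's start in kb; crosses at the bottom mark genes that did not reach the filter. In the right panel Foxc1 at 2.39 stands above Foxf2 at 0.08, and in the left panel the interval of Foxf1 spans -1.57 to 3.39.

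Foxf1, Foxc2 and Foxl1 share a cluster on chromosome 8, with starts of Foxc2 and Foxl1 31.8 kb and 43.6 kb beyond that of Foxf1. Foxf1, which is needed for the mesenchyme of gut and lung, measured 13.2 and 0.816 RPM in controls 1 and 2, against 10.0 and 7.27 RPM in mutants 1 and 2. Control 1 and both mutants were alike, and control 2 alone was low, with 11 reads against 243 in control 1. The controls differed by 16.1-fold (95% counting interval 8.86 to 32.8, counting error only), while the mutants differed by 1.38-fold. The log2 fold change of 0.91 (SE 0.98, interval -1.57 to 3.39, adjusted p = 0.674) rested on which control was used. It was 2.39 without control 1 (adjusted p = 0.00344) and -0.57 without control 2 (adjusted p = 0.29). With a single control, however, the fit called many genes: 15.2% of those tested were higher and 7.23% lower without control 1, and 10.4% were higher without control 2.

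Foxl1, a marker of the mesenchymal cells that lie under the gut epithelium, measured 0.217 and 0.742 RPM in controls 1 and 2, against 2.29 and 4.58 RPM in mutants 1 and 2, from 4, 10, 40 and 68 reads. The groups did not overlap. The ratio of means was 7.16 and that of pooled reads 7.63 (95% counting interval 4.35 to 14.4), with a log2 fold change of 1.56 (interval 0.44 to 2.67, adjusted p = 0.168). Foxl1 passed without control 2 (log2 fold change 1.82, adjusted p = 0.0315), and over 12 alternatives its adjusted p ranged from that value to 0.244.

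Foxc2, a regulator of lymphatic vessels and of fat cells, measured 4.55 and 21.7 RPM in controls 1 and 2, against 9.45 and 18.5 RPM in mutants 1 and 2. It showed the reverse of Foxf1, with control 2 the highest library, at 4.76 times control 1 (95% counting interval 3.72 to 6.14), and control 1 the lowest. The log2 fold change was 0.35 (interval -1.54 to 2.23, adjusted p = 0.846), going to -0.67 without control 1 and to 1.36 without control 2. Thus Foxc1 passed and its closest relative Foxc2 did not, but the difference between them was not tested. Mthfsd, which lies between Foxf1 and Foxc2, differed by 0.44 on the log2 scale (adjusted p = 0.398). The long noncoding RNA gene Fendrr, whose start is 1.28 kb from that of Foxf1, had at most 0.515 RPM in any library. Irf8, a macrophage factor gene 348 kb before Foxf1, had 22.2 RPM in control 2 and no read in the others. Of 11 tested genes on the list of neighbours of both clusters, which includes the members in them, 1 rose (Foxc1), against 1.73% of all genes tested. Of the same 11, 0 fell, against 0.576%, and 10 did not pass, with a median of 0.39, against 0.08 over all genes tested.

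Foxd1 lies apart on chromosome 13 at 98354242 to 98359305 (plus strand). It had no read in either control, 1.26 RPM in mutant 1 (22 reads) and 1.82 RPM in mutant 2 (27 reads). When no read is seen, up to 3 reads remain possible (0.163 RPM in control 1 and 0.222 RPM in control 2), and both mutants stood above that limit. Set against 3 reads in each control library, Foxd1 was 7.99-fold higher in the mutants by mean RPM. That value allows for no error in the mutant reads or between libraries, and Foxd1 was tested only because the mutants were higher. The test did not call it (log2 fold change 1.34, interval 0.43 to 2.24, limma adjusted p = 0.151). DESeq2 on whole reads, which called 5.14% of all genes tested higher, did (adjusted p = 0.0165). edgeR, which called 0.567% higher, did not (adjusted p = 0.126). Its relative Foxd2 stood at 0.867, 0.89, 0.916 and 2.09 RPM in control 1, control 2, mutant 1 and mutant 2 and did not reach the filter.

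Foxs1 measured 2.66 and 28.5 RPM in controls 1 and 2, against 9.45 and 12.9 RPM in mutants 1 and 2. Both mutants were again between the controls, which differed by 10.7-fold (95% counting interval 7.95 to 14.8). The log2 fold change was 0.21 (interval -2.29 to 2.71, adjusted p = 0.933) and turned with the control used, to -1.29 without control 1 (adjusted p = 0.0193) and 1.72 without control 2 (adjusted p = 0.011). Foxs1, Foxc2 and the summed level of 13 endothelial markers shared 1 order of libraries, from control 1 over mutant 1 and mutant 2 to control 2, and Foxf1 had the opposite order. That sum was 17.3, 28.4, 49.8 and 96.0 RPM in this order, with the endothelial genes Tie1 and Sox17 at 0 in every library. Its order was that of Cdh5 and Emcn and not of every marker. Erg (0.054 and 1.71 RPM with Ad-GFP, 5.16 and 8.96 RPM with Ad-Cre) and Tek (4.01 and 4.38 RPM, then 5.61 and 12.2 RPM) were highest in the mutants. Kdr was lowest in control 2 and Egfl7 lowest in the mutants, none of these past the threshold. Pecam1 had 24.5 RPM in control 2 and 1.41 to 1.83 RPM in the other libraries. The order was not particular to endothelial genes, since Foxm1 and the muscle marker Acta1 (6.07, 25.4, 53.9 and 88.9 RPM) had it too. In 20.2% of all genes tested both mutants lay between the controls, a count that takes in other orders as well. The share with this order was not counted. The 7 pericyte markers went another way, with sums of 48.4 and 76.4 RPM with Ad-GFP, and 298 and 397 RPM with Ad-Cre, and 2 of 3 tested (Notch3 and Cspg4) rose, against 1.73% of all genes tested. These sums were carried by Notch3, Cspg4 and Mcam. Abcc9 (6.23 and 0.89 RPM with Ad-GFP, 0 and 0.067 RPM with Ad-Cre) and Kcnj8 (0.867 and 0.593 RPM, then 0.115 and 0.067 RPM) were lower in both mutants and did not reach the filter, Rgs5 had at most 0.974 RPM and Higd1b had no read in any library. The part of endothelial or pericyte RNA in the Foxs1 and Foxc2 values was not tested, and in bulk RNA fewer cells of a type and less RNA per cell cannot be told apart.

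The spread between controls was thus a feature of several members. In 3 of the 10 (Foxf1, Foxc2 and Foxs1) the controls were over 4-fold apart on the log2(RPM + 1) scale, as in 4.36% of all genes tested. The mutants were that far apart in 0 of the 10, as in 0.0945% of all genes tested. Both mutants lay between the controls in 4 members, against 20.2% of all genes tested.

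**Figure D3:**
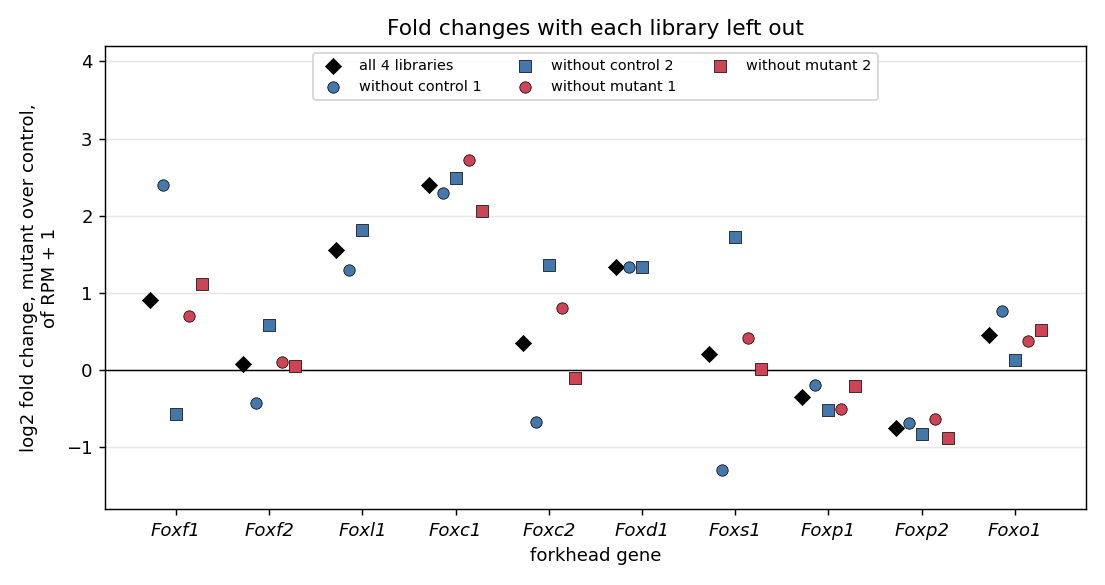
Log2 fold change (mutant over control, of RPM + 1) of each gene with all 4 libraries (black) and with 1 library left out (blue, a control; red, a mutant). Foxc1 keeps values of 2.07 to 2.72, whereas Foxf1, Foxf2, Foxc2 and Foxs1 change sign with the control that is left out; Foxd1 and Foxl1 have no red points because they did not reach the filter without a mutant.

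Foxp1 measured 212 and 169 RPM in controls 1 and 2, against 165 and 134 RPM in mutants 1 and 2. The mutants were below the controls by a narrow margin, and the log2 fold change of -0.35 (interval -0.95 to 0.24, adjusted p = 0.495) did not pass. Foxp2 measured 2.82 and 2.45 RPM in the control cells, and 0.974 and 1.35 RPM in the mutant cells. Its groups did not overlap and the ratio of control to mutant means was 2.27, but with 85 control and 37 mutant reads it did not pass (log2 fold change -0.75, interval -1.63 to 0.12, adjusted p = 0.34). Their relative Foxp4 lay on the other side, at 70.1 and 55.4 RPM with Ad-GFP, and 101 and 98.9 RPM with Ad-Cre (log2 fold change 0.67, adjusted p = 0.215). Foxp3, which marks regulatory T cells, had at most 0.816 RPM.

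Foxo1, which turns on genes of metabolism and stress resistance when insulin signalling is low, measured 15.2 and 9.35 RPM in controls 1 and 2, against 17.6 and 15.8 RPM in mutants 1 and 2. Mutant 2 exceeded control 1 only slightly, and the log2 fold change of 0.45 (interval -0.41 to 1.31, adjusted p = 0.544) did not pass. The related Foxo3 measured 80.4 and 79.4 RPM in the control cells, and 122 and 153 RPM in the mutant cells, a difference of 0.77 in log2 (interval 0.22 to 1.32, adjusted p = 0.168). Foxo4 had a log2 fold change of 0.69 (adjusted p = 0.329), and Foxo6 had at most 0.65 RPM. The 3 tested FoxO genes thus had positive log2 fold changes, and none of them passed. Of all 11638 genes tested, 6546 had a positive value.

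Of 21 tested genes that carry signals to FoxO proteins, 1 rose (1.73% of all genes tested did), 0 fell (0.576%) and 20 did not pass. Their median log2 fold change was 0.22, against 0.08 over all genes tested. The one that rose was Irs1, which links the insulin and IGF receptors to PI3 kinase. It measured 22 and 26.6 RPM in the control cells, and 228 and 304 RPM in the mutant cells, a 10.9-fold ratio of means (log2 fold change 3.39, SE 0.25, adjusted p = 0.0176). Pik3r1, a regulatory subunit of PI3 kinase, went from 172 and 137 RPM with Ad-GFP to 599 and 410 RPM with Ad-Cre (log2 fold change 1.68, adjusted p = 0.057). Its log2 fold change ranged from 1.41 to 1.96 over the 15 alternatives. Pik3ca (log2 fold change -0.46, adjusted p = 0.394) and Crebbp (0.42, adjusted p = 0.505) came next by unadjusted p.

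Of 20 tested FoxO target genes, 1 rose (1.73% of all genes tested did), 0 fell (0.576%) and 19 did not pass. Their median was 0.31, against 0.08 over all genes tested. Sesn1, a stress-induced gene that p53 also activates, measured 4.28 and 4.97 RPM in the control cells, and 20.4 and 19.5 RPM in the mutant cells, a 4.32-fold ratio (log2 fold change 1.90, adjusted p = 0.0496). That call passed in 6 of 15 alternatives, with adjusted p-values from 7.26e-05 to 0.708. Sesn3 (log2 fold change 1.24, adjusted p = 0.193), Pik3ip1 (1.77, adjusted p = 0.229) and Bcl6 (-0.92, adjusted p = 0.239) did not pass. Pdk4 and Irs2, which are often read as FoxO responses and were named here after their values were seen, had log2 fold changes of 0.42 and 0.32 (adjusted p = 0.729 and 0.718).

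Outside the set, 33 other forkhead genes are described here, of which 10 reached the filter, 6 had no read in any library and the rest had at most 2.09 RPM. Of these 10, limma called 0 higher and 0 lower, 2 (Foxo3 and Foxp4) had an unadjusted p below 0.05, a share near the 17.9% of all genes tested, and the median log2 fold change was 0.36. All 10 reached the filter in the controls, as did the 7 mesenchymal genes with a median of 0.21. edgeR and DESeq2 on whole reads called 0 of them too. The proliferation factor gene Foxm1 measured 1.46 and 8.83 RPM in the control cells, and 4.41 and 6.74 RPM in the mutant cells, both of them between the controls (log2 fold change 0.40, adjusted p = 0.814). The remaining tested genes had log2 fold changes of 0.53 (Foxn3), 0.33 (Foxj2), 0.22 (Foxk1), 0.05 (Foxn2), -0.23 (Foxk2) and -0.23 (Foxj3), with adjusted p-values of 0.48 or more.

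**Figure D4:**
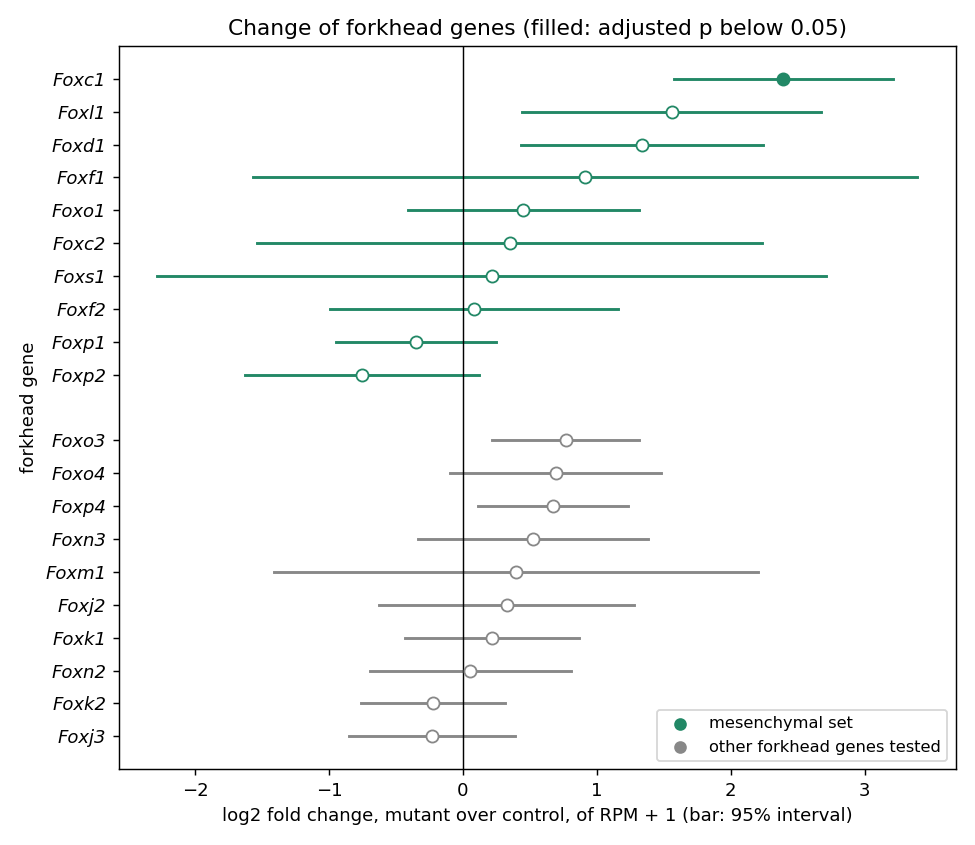
Log2 fold change (mutant over control, of RPM + 1) with its 95% interval for the 10 mesenchymal forkhead genes (green) and 10 other forkhead genes that were tested (grey); filled points passed the threshold. Foxc1 is the filled point, and the widest intervals are those of Foxs1 and Foxf1.

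The Hedgehog genes give the setting for Foxf1, Foxf2 and Foxl1. Of 12 tested Hedgehog ligand, receptor and Gli genes, 4 rose (1.73% of all genes tested did), 0 fell (0.576%) and 8 did not pass. Their median was 0.51, against 0.08 over all genes tested. Of those that rose, Gli1 and Hhip reached the filter only with the mutants, so a higher value there was a condition of being tested. Gli1, the transcription factor that reports an active pathway, measured 0.108 and 0.074 RPM in the control cells, and 159 and 183 RPM in the mutant cells (log2 fold change 7.30, adjusted p = 0.00472). Hhip (7.60, adjusted p = 0.00472), Ptch1 (4.73, adjusted p = 0.00966) and Gli2 (3.38, adjusted p = 0.021) also rose. Beside them, Foxl1 had a log2 fold change of 1.56, Foxf1 of 0.91 and Foxf2 of 0.08, none past the threshold. The difference between these genes and the Hedgehog genes was not tested.

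By the distance between log2(RPM + 1) values centred on their mean over the 4 libraries, among 10984 genes, the genes most like Foxc1 were Fgf5, Mylk and Adra1b, at distances of 0.23, 0.24 and 0.27. Fgf5, a growth factor gene, had no read with Ad-GFP, and 3.15 and 6.60 RPM with Ad-Cre (adjusted p = 0.0624). Mylk, the myosin light chain kinase gene, had 3.85 and 4.60 RPM with Ad-GFP, and 19.8 and 27.1 RPM with Ad-Cre (adjusted p = 0.0428). Adra1b, an adrenergic receptor gene, had 0.596 and 0.964 RPM with Ad-GFP, and 6.93 and 13.5 RPM with Ad-Cre (adjusted p = 0.058). All 3 were picked for their likeness to Foxc1 over these 4 libraries, so a shared pattern was fixed by the choice. Fgf5 and Adra1b reached the filter only with the mutants, so a higher value there was a condition of being tested.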

How the data were processed

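Messenger RNA of 4 libraries (2 controls and 2 mutants, grouped by their labels) was read with an Ion AmpliSeq mouse transcriptome panel after SuperScript VILO reverse transcription, per the labels' protocols. Each gene is represented by 1 amplicon, so a value describes that amplicon and levels were not compared between genes. The authors deposited RPM, in which amplicon reads are scaled to the library total (each column has the same sum). For the aligner, the counter and the genome build, the sources used here give nothing. Symbols were taken from amplicon names, since 27 gene names differed from them. Low RPM values are multiples of the worth of 1 read; with that step 100% of non-zero values came out whole within 0.05 read. Counting intervals are exact binomial ones at 95% and, like the limit of 3 reads for a value of 0, cover counting error only, since these reads are not independent molecules.

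limma 3.58.1 (R 4.3.3; lmFit, then eBayes with a trend; two-sided) was run on log2(RPM + 1), fitted across 11638 genes and tested on simulated data. Alternatives were other pseudocounts, filters and scalings, a fit with no trend, the replicate number as a block, leaving out each library, and edgeR 4.0.16 (quasi-likelihood) and DESeq2 1.42.0 on the recovered whole reads. Named genes were the members, the other forkhead genes that were tested, the 4 genes (or fewer) of each list that ranked first by unadjusted p, and the 3 genes nearest to a member that passed. Lists were Hedgehog genes, FoxO inputs, FoxO targets and neighbours of the forkhead clusters, with marker lists of stromal cells, macrophages, lymphocytes, endothelium, pericytes, muscle, keratinocytes and Schwann cells with melanocytes. The sums of the 4 lists not given with the results were 0 to 0.539 RPM (lymphocytes), 42.8 to 116 RPM (muscle), 0.163 to 1.71 RPM (keratinocytes) and 20.2 to 27.6 RPM (Schwann cells and melanocytes). Of the genes in these lists, 2 are not reported here and are left out of the list counts. Members and lists were chosen with earlier results of these data known. Positions come from GENCODE M21 (GRCm38) by symbol. Python 3.11.15 with pandas 2.3.3, scipy 1.17.1 and matplotlib 3.10.9 was used for tables and figures.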

Additional observations from a re-analysis of the deposited data

How the results depend on the processing

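Over 15 alternatives, Foxc1 was called in 11, and its direction did not change in any. The number of members called higher was 0 with no filter (limma, with 3 at an unadjusted p below 0.05, against 13% of all genes). It was 0 with edgeR (3 at that unadjusted p, against 17.4%). With DESeq2 it was 2 (Foxc1 and Foxd1), against 5.14% of all genes tested. Leaving out 1 library gave 0 to 3 members higher and 0 to 1 lower. Without a mutant replicate 8 members were tested and limma called no gene of the table (689 and 670 genes at an unadjusted p below 0.05, without mutant 1 and mutant 2). Over all genes, leaving out 1 library gave 0 to 1731 genes higher and 0 to 854 lower, where a lone library of a group is assumed to vary like the others. The counts higher and lower were 56 and 18 with no filter, 66 and 27 with edgeR, and 598 and 493 with DESeq2, against 201 and 67.

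With the replicate number as a block, 301 genes were higher and 123 lower, and the members called did not change in number. Same-numbered libraries deviated together only weakly (r = 0.164 across genes), and the labels give no shared origin, so the pairing is not established.

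Log2 fold changes that turned sign belonged to genes that did not pass. Leaving out 1 library gave -0.57 to 2.39 for Foxf1, -0.42 to 0.59 for Foxf2, -0.67 to 1.36 for Foxc2, -1.29 to 1.72 for Foxs1, -0.19 to 0.30 for Foxn2, -0.0869 to 0.74 for Foxj2 and -0.60 to 1.39 for Foxm1. With edgeR and DESeq2, in that order, the values were -0.10 and -0.11 for Foxf2, -0.014 and -0.037 for Foxc2, -0.60 and -0.62 for Foxs1, and -0.033 and -0.046 for Foxn2, and DESeq2 gave -0.018 for Foxm1. Quantile scaling gave -0.10 for Foxf2 and -0.069 for Foxn2, and Foxn2 was at -0.030 with median-of-ratios and -0.017 with TMM scaling. Apart from the left-out libraries, whose effect comes from fewer samples, the cause was not tested. Reads were few for Foxd1 (0 control and 49 mutant reads), Foxl1 (14 and 108) and Foxp2 (85 and 37).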
